A study of Homo sapiens with 20 samples.

Results

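Negative feedback on NF-kB signalling was described at the RNA level for 10 genes, *TNFAIP3*, *NFKBIA*, *NFKBIE*, *NFKBIZ*, *TNIP1*, *TRAF1*, *BIRC2*, *BIRC3*, *ZC3H12A* and *CYLD*, out of 58233 gene identifiers in the count files. The 10 genes were chosen from earlier results on these same counts, namely their differences after *ADAR* knockout (KO) in each cell line and the KO by IFN-β interaction in A549 cells. The KO differences, the interaction and the IFN-β differences in control and KO A549 cells that make it up are therefore given as descriptions, with no p value, and support no statement about the genes. The levels of control cells were compared between lines with a test, since no such contrast entered the choice, but their libraries are also the reference of the KO differences and so the test is not fully independent of it. The study asked which genes respond when ADAR1, the RNA editing enzyme encoded by *ADAR*, is lost from lung cancer cells that depend on it or from cells that tolerate its loss. RNA-seq covered 20 libraries in 10 conditions, with 2 libraries per condition that differ in the sgRNA. The ADAR1-dependent lines were HCC366 (lung adenosquamous carcinoma), NCI-H1650 (lung adenocarcinoma) and NCI-H196 (variant small cell lung cancer), each untreated, with sgRNAs against *GFP* as control or against *ADAR*. A549 (lung adenocarcinoma), which tolerates the loss, carried the same kinds of sgRNA and received vehicle or 10 ng/mL IFN-β, a type I interferon, for 24 h. All cells in all groups also expressed Cas9 from a lentiviral vector and were transduced populations rather than clones. The legend of the study's RNA-seq heat maps gives a single replicate. The sources do not say that the 2 libraries of a condition came from separate experiments. Standard errors (SE) and p values thus cover only the spread between sgRNAs, which the fits estimated in large part from many genes together.

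NF-kB transcription factors are held in the cytoplasm by IκB proteins until a kinase complex, activated by ubiquitin chains at receptors such as those for TNF and IL-1, marks the IκB proteins for destruction. Several NF-kB target genes encode brakes on the same pathway. *NFKBIA* and *NFKBIE* encode the cytoplasmic inhibitors IκBα and IκBε, *TNFAIP3* encodes the ubiquitin-editing enzyme A20, *TNIP1* encodes an A20-binding protein, *CYLD* encodes a deubiquitinase, and *ZC3H12A* encodes Regnase-1, an RNase that degrades inflammatory mRNAs. *TRAF1*, *BIRC2* and *BIRC3* encode an adaptor and the ubiquitin ligases cIAP1 and cIAP2, which act at TNF receptors and restrain the alternative NF-kB pathway, and *NFKBIZ* encodes the nuclear protein IκBζ, which can also promote transcription.

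The reads on genes ranged from 62679 to 19520189 per library, with a median of 6411279. The NCI-H196 GFP sg2 library held the 62679 reads, and HCC366 ADAR sg2 had the highest share of alignments that were not unique, at 85.6%. *ADAR* RNA was lower with *ADAR* than with *GFP* sgRNAs in every line, by log2 differences of -1.29 ± 0.11 in NCI-H1650, -1.08 ± 0.13 in A549 with vehicle, -0.84 ± 0.31 in HCC366, -0.60 ± 0.13 in A549 with IFN-β and -0.41 ± 0.11 in NCI-H196 (± SE, 2 libraries per group). In HCC366 that difference did not pass the threshold. The summed level of 4 leukocyte markers was at most 2.43 CPM (counts scaled to library size) in any library. The summed level of 5 epithelial markers was 1629 to 5469 CPM in A549, HCC366 and NCI-H1650 but 41.8 to 63.6 CPM in NCI-H196. Of these markers, *KRT19* had no reads in any HCC366 or NCI-H196 library. In HCC366 the 4 squamous markers summed to 1.43 to 7.98 CPM, so the squamous part of its label had little counterpart in the RNA.

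NF-kB binds DNA at kappaB sites, and the promoters of the 10 genes are shown to let the letters of these sites be compared before the RNA levels. RefSeq promoters (GRCh38.p14, 250 bases before to 50 after a start site) were found for 9 of the 10 genes (all but *NFKBIE*), with 16 windows in all, some of which overlap each other. The kappaB consensus, searched on both strands, matched 8 of the 16 windows, beside 11.3% of 35116 RefSeq promoters. At least 1 window matched for 6 of the 9 genes, a count per gene to which the share per promoter does not apply. Windows of *TRAF1*, *BIRC2* and *ZC3H12A* held no match, which says only that these letters are not in the windows. For each of the 6 genes, 1 window is printed 5′ to 3′ on the strand of the gene, with the match in capitals. The *TNFAIP3* promoter (chr6:137867188-137867217, plus strand) holds a pair of matches that begin 67 and 55 bases before the start site.
TNFAIP3: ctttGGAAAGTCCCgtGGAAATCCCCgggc
The *NFKBIA* match (chr14:35404796-35404855, minus strand) begins 81 bases before the start site, and the *TNIP1* match, in the second of its windows (chr5:151081057-151081086, minus strand), begins 42 bases before it.
NFKBIA: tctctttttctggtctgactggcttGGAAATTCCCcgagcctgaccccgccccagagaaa
TNIP1: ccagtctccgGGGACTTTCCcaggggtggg
The *NFKBIZ* match printed here (chr3:101827757-101827786, plus strand) begins 223 bases before the start site of the first window. Another, in the second window, begins 239 bases before the start site of that window and is not printed.
NFKBIZ: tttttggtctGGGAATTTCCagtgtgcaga
*BIRC3* has a pair of matches (chr11:102317260-102317383, plus strand) that begin 199 and 135 bases before the start site. *CYLD* has a match (chr16:50741872-50741931, plus strand) that begins 189 bases before the start site of the second window. Another *CYLD* match begins at the start site of its last window and is not printed.
BIRC3: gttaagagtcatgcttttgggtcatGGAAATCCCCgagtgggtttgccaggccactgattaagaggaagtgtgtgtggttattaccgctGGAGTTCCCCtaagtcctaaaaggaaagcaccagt
CYLD: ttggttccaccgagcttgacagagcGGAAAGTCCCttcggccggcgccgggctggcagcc
The first *TNFAIP3* match and the printed *CYLD* match have the same 10 letters, as do the second *TNFAIP3* match and the first *BIRC3* match. A match is a description of the letters and not evidence of binding, which these data do not measure.

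After *ADAR* KO, *TNFAIP3* and *TRAF1* were called higher in each ADAR1-dependent line and in A549 cells that received IFN-β, and no gene of the 10 was called in A549 with vehicle. They had the largest differences of the 10 genes in each of these 4 settings other than NCI-H1650, where *NFKBIE* and *TRAF1* had the same log2 difference of 1.54. Called below means an adjusted p under 0.05 in edgeR's quasi-likelihood test over all genes. In NCI-H1650, 9 of the 10 genes were called higher, where 6.18% of 14530 genes tested were called higher and 2.42% lower, and in NCI-H196 also 9 of 10, where 10.3% of 14094 genes were called higher and 7.5% lower. *BIRC2* was the gene not called in either line. In HCC366, 2 of 10 were called higher (*TNFAIP3* and *TRAF1*), where 1.2% of 11135 genes were called higher and 0.0449% lower. In A549, none of the 10 was called with vehicle, where 0.0324% of 15449 genes were called higher, and 9 of 10 were called higher with IFN-β (all but *ZC3H12A*), where 10.8% were called higher and 6.19% lower. None of the 10 was called lower in any of these comparisons. Because the choice of genes used these contrasts, nothing is read from the counts. In these bulk libraries, more RNA in every cell and a larger share of cells that express a gene cannot be told apart.

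Counting genes for which both *ADAR* libraries were above both *GFP* libraries gives 8 of 10 in HCC366 (25.1% of all genes tested), 9 in NCI-H1650 (26.2%), 9 in NCI-H196 (25.6%), 4 in A549 with vehicle (18.8%) and 9 in A549 with IFN-β (28.2%). The exceptions were *BIRC2* in the 3 dependent lines, *BIRC3* in HCC366 and *ZC3H12A* in A549 with IFN-β, and in A549 with vehicle *NFKBIA*, *TNIP1*, *TRAF1*, *BIRC2*, *ZC3H12A* and *CYLD*. The counts of calls depended on single libraries in HCC366 and NCI-H196. No share of all genes called is given for the alternative runs below. Nothing about the 10 genes in particular is read from these counts. In HCC366, no gene was called without GFP sg1 or without GFP sg2, 5 were called without ADAR sg2, and all 10 without ADAR sg1, then with *BIRC2* and *BIRC3* lower at log2 differences of -0.76 and -1.08. In NCI-H196, 2 genes (*TNFAIP3* and *NFKBIZ*) were called without GFP sg1, which leaves the library of 62679 reads as the only control, 5 without ADAR sg2, and 9 without GFP sg2. In NCI-H1650, 7 genes were called without GFP sg2 (*NFKBIZ* and *TNIP1* lost) and 8 without GFP sg1 or without ADAR sg1 (*ZC3H12A* lost), and in A549 with IFN-β 8 without GFP sg1 or without ADAR sg2 (*TNIP1* lost). By DESeq2, 6 genes were called in NCI-H1650 (*NFKBIZ*, *BIRC3* and *ZC3H12A* lost) and 3 in NCI-H196 (*TNFAIP3*, *NFKBIA* and *NFKBIZ*), where 3 of the others had no adjusted p.

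**Figure D1:**
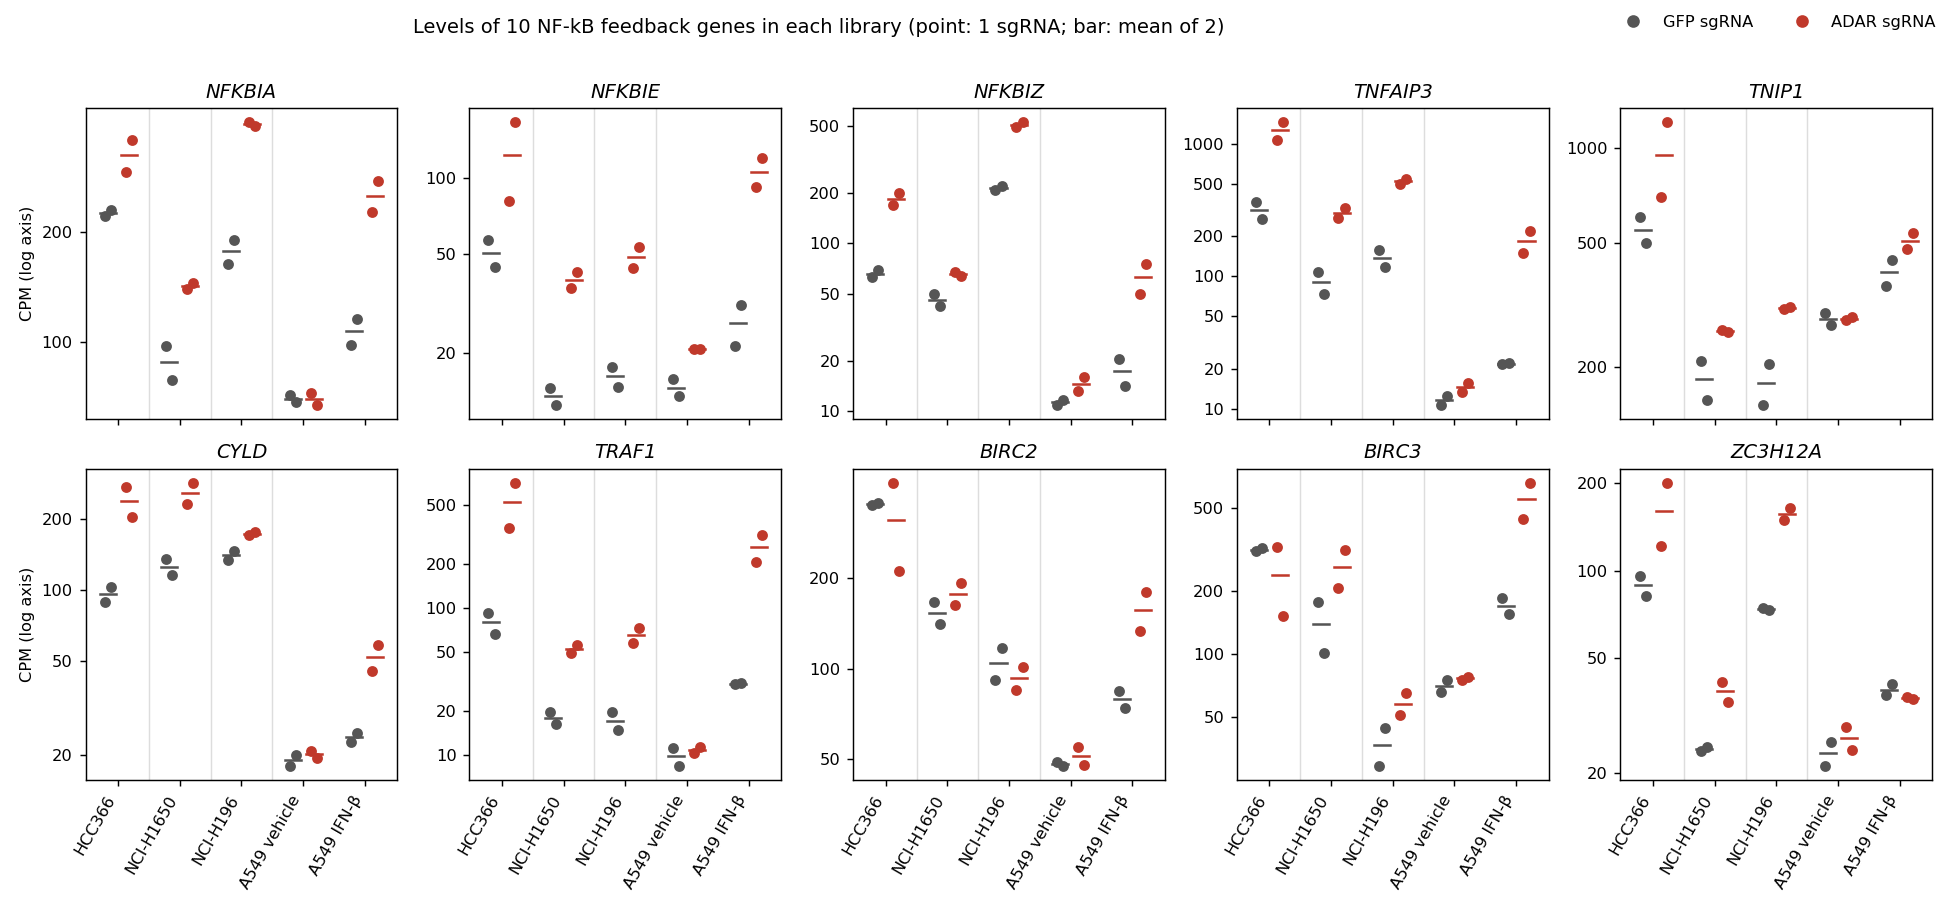
CPM (log axis, scaled by TMM within each cell line) of each of the 10 genes in the 20 libraries, grey for *GFP* and red for *ADAR* sgRNAs, with 1 point per sgRNA and a bar at the mean of the 2. For *TNFAIP3*, A549 lies between 10.8 and 22.4 CPM except in *ADAR* KO cells with IFN-β (151 and 221 CPM), while in the other 3 lines the *ADAR* libraries lie above the *GFP* libraries.

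*TNFAIP3* (ENSG00000118503, GRCh37 chr6:138188351-138204451, plus strand, 9 exons) encodes A20, which takes apart the ubiquitin chains that carry the TNF signal. In HCC366 its level was 363 and 268 CPM with GFP sg1 and sg2 and 1069 and 1440.1 CPM with ADAR sg1 and sg2. NCI-H1650 had 108 and 73.8 CPM with *GFP* and 277 and 328 CPM with *ADAR* sgRNAs. NCI-H196 had 158 and 117 CPM with *GFP*, the second from 8 reads, and 499 and 543 CPM with *ADAR* sgRNAs. The groups did not overlap in any of these lines, and the KO differences were 1.99 ± 0.33, 1.73 ± 0.12 and 1.75 ± 0.11 on the log2 scale. In A549 the level was 10.8 and 12.6 CPM in control cells with vehicle, 13.4 and 15.9 in KO cells with vehicle, 21.9 and 22.4 in control cells with IFN-β, and 151 and 221 in KO cells with IFN-β. KO cells with IFN-β stood far above the other A549 libraries, with a KO difference of 3.07 ± 0.15 on the log2 scale beside 0.31 ± 0.19 with vehicle. *TNFAIP3* shares 95 exonic bases with the antisense RNA *WAKMAR2*, and the strand setting of the counting is not given in the sources used here.

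When all 20 libraries were scaled together, *TNFAIP3* was highest in HCC366 KO cells, with 996 and 1269 CPM. NCI-H196 KO cells came next, with 398 and 479 CPM, above HCC366 control cells with 251 and 335 CPM. HCC366 control, NCI-H1650 KO (247 and 294 CPM) and A549 KO cells with IFN-β (178 and 261 CPM) overlapped with their neighbours in this order. NCI-H196 control cells (83.7 and 137 CPM) overlapped with NCI-H1650 control cells (64.6 and 97.0 CPM). The other A549 groups were lowest and did not overlap, with 26.4 and 27.3 CPM in control cells with IFN-β, 16.3 and 19.7 in KO cells with vehicle and 13.1 and 15.8 in control cells with vehicle. The upper A549 KO library with IFN-β (261 CPM) thus lay within the range of untreated control HCC366 cells, and the lower (178 CPM) lay below it.

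*TNIP1* (GRCh37 chr5:150409506-150473138, minus strand), which encodes a partner of A20, moved less than *TNFAIP3*. Its levels in A549 were 297 and 273 CPM in control cells with vehicle, 283 and 289 in KO cells with vehicle, 364 and 441 in control cells with IFN-β and 478 and 535 in KO cells with IFN-β. The KO difference with IFN-β was 0.33 ± 0.10 on the log2 scale, the smallest among the genes called there. In HCC366 it had 602 and 499 CPM with *GFP* and 697 and 1209 CPM with *ADAR* sgRNAs, so the *ADAR* libraries lay further apart than the gap between groups. The KO difference was 1.02 ± 0.11 in NCI-H196, 0.79 ± 0.35 in HCC366, where it was not called, and 0.51 ± 0.11 in NCI-H1650.

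*CYLD* (GRCh37 chr16:50775961-50835846, plus strand), whose product removes ubiquitin chains from signalling complexes, had its largest KO differences in HCC366 (1.31 ± 0.33, not called), A549 with IFN-β (1.13 ± 0.15) and NCI-H1650 (1.03 ± 0.11). NCI-H1650 had 136 and 116 CPM with *GFP* and 233 and 283 CPM with *ADAR* sgRNAs. A549 had 22.8 and 24.9 CPM in control cells and 45.5 and 58.4 CPM in KO cells with IFN-β. The groups did not overlap in either. In NCI-H196 the difference was 0.38 ± 0.10, from 134 and 147 CPM to 171 and 177 CPM, and it was not called by DESeq2, without a filter on low counts, with the sgRNA number as a block, in the fit of all 20 libraries, or without GFP sg1, ADAR sg1 or ADAR sg2. *CYLD* shares 54 exonic bases with *CYLD-AS1*.

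*NFKBIA* (ENSG00000100906, GRCh37 chr14:35870285-35873955, minus strand, 6 exons), which encodes IκBα, had 164 and 191 CPM with *GFP* and 399 and 390.2 CPM with *ADAR* sgRNAs in NCI-H196. In A549 with IFN-β it had 98.0 and 116 CPM in control cells and 226 and 275 CPM in KO cells. Both pairs of groups were well apart, with KO differences of 1.26 ± 0.11 and 1.23 ± 0.11 on the log2 scale. The difference was 0.69 ± 0.11 in NCI-H1650 and 0.52 ± 0.31 in HCC366, where it was not called. In A549 with vehicle, control cells had 71.5 and 68.3 CPM and KO cells 72.4 and 67.2 CPM, which overlapped.

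*NFKBIE* (GRCh37 chr6:44225903-44233525, minus strand), which encodes IκBε, was the IκB gene with the largest KO differences in NCI-H1650, NCI-H196 and A549 with IFN-β. A549 KO cells with IFN-β had 92.7 and 120.2 CPM, beside 21.3 and 31.3 CPM in control cells with IFN-β. With vehicle the values were 20.9 and 20.8 CPM in KO cells and 15.7 and 13.4 CPM in control cells. The KO difference was 2.01 ± 0.15 with IFN-β and 0.53 ± 0.18 with vehicle, the latter the largest of the 10 genes in that comparison although not called. NCI-H1650 had 14.6 and 12.4 CPM with *GFP* and 36.6 and 42.1 CPM with *ADAR* sgRNAs, and HCC366 had 56.6 and 44.4 CPM and 81.4 and 167 CPM. The HCC366 difference, 1.32 ± 0.42, was not called, and its *ADAR* libraries differed from each other more than the *GFP* libraries did. In NCI-H196 the difference was 1.54 ± 0.17, but GFP sg2 held 1 read of the gene.

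*NFKBIZ* (GRCh37 chr3:101546835-101579866, plus strand), which encodes IκBζ, was most abundant in NCI-H196, with 208 and 220 CPM with *GFP* and 489 and 522 CPM with *ADAR* sgRNAs. HCC366 had 62.8 and 69.1 CPM with *GFP* and 168 and 199 CPM with *ADAR* sgRNAs. Neither pair of groups overlapped, with KO differences of 1.29 ± 0.11 and 1.47 ± 0.33, the second not called. In NCI-H1650 the difference was 0.51 ± 0.13, and in A549 with IFN-β it was 1.88 ± 0.18, from 20.5 and 14.2 CPM to 50.2 and 75.4 CPM. *NFKBIZ* shares 194 exonic bases with its neighbour *NXPE3* on the same strand.

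*TRAF1* (ENSG00000056558, GRCh37 chr9:123664671-123691451, minus strand, 8 exons), which encodes an adaptor at TNF receptors, had 93.0 and 66.8 CPM with *GFP* and 351 and 704 CPM with *ADAR* sgRNAs in HCC366. NCI-H1650 had 19.6 and 16.2 CPM with *GFP* and 49.4 and 55.5 CPM with *ADAR* sgRNAs. NCI-H196 had 19.5 and 14.7 CPM with *GFP*, the second from 1 read, and 57.9 and 73.4 CPM with *ADAR* sgRNAs. The groups did not overlap in any line, and the KO differences were 2.73 ± 0.42, 1.54 ± 0.16 and 1.85 ± 0.16 on the log2 scale. In A549 the level was 11.2 and 8.43 CPM in control and 10.2 and 11.4 CPM in KO cells with vehicle, and 30.5 and 30.7 CPM in control and 207 and 316 CPM in KO cells with IFN-β. The groups overlapped with vehicle (0.19 ± 0.21) and were far apart with IFN-β (3.10 ± 0.15).

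*BIRC2* and *BIRC3* are neighbouring genes (GRCh37 chr11:102217942-102249401 and chr11:102188215-102210134, both on the plus strand) for the related ubiquitin ligases cIAP1 and cIAP2. *BIRC2* was not called after KO in any of the 3 dependent lines, with differences of -0.18 ± 0.37 in HCC366, 0.09 ± 0.12 in NCI-H196 and 0.21 ± 0.11 in NCI-H1650. The groups overlapped in each line. In NCI-H196 it had 91.9 and 117 CPM with *GFP* and 85.3 and 102 CPM with *ADAR* sgRNAs, so the mean CPM was lower with *ADAR* sgRNAs although the fit, which weights libraries by their counts, gave a value above 0. In A549 with IFN-β it had 84.2 and 74.3 CPM in control and 134 and 181 CPM in KO cells, a difference of 1.00 ± 0.12. *BIRC3* had 185 and 156 CPM in control and 446 and 660.1 CPM in KO cells in that setting, a difference of 1.70 ± 0.13. The groups did not overlap for either gene, and whether A549 with IFN-β differed from the dependent lines was not tested.

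In HCC366, *BIRC3* had 311 and 323 CPM with *GFP* and 325 and 152 CPM with *ADAR* sgRNAs, and *BIRC2* had 350.1 and 357 CPM and 415 and 211 CPM. For both genes ADAR sg2 was the lowest library, while ADAR sg1 was the highest, for *BIRC3* by only a few CPM. ADAR sg2 is also the library with 85.6% of alignments not unique, and the part of this in the result was not tested. In NCI-H1650 *BIRC3* had 178 and 101 CPM with *GFP* and 207 and 317 CPM with *ADAR* sgRNAs (0.90 ± 0.14), and in NCI-H196 29.0 and 43.98 CPM, the second from 3 reads, and 50.8 and 64.6 CPM (1.08 ± 0.16).

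*ZC3H12A* (GRCh37 chr1:37940181-37949978, plus strand), which encodes Regnase-1, was called after KO in NCI-H196 and NCI-H1650 but not in A549. NCI-H196 had 74.3 and 73.3 CPM with *GFP* and 149 and 164 CPM with *ADAR* sgRNAs, a difference of 1.11 ± 0.11. NCI-H1650 had 23.8 and 24.6 CPM with *GFP* and 41.4 and 35.2 CPM with *ADAR* sgRNAs, a difference of 0.67 ± 0.16. Neither call held by DESeq2, that in NCI-H1650 was also lost in the fit of all 20 libraries and without GFP sg1 or ADAR sg1, and that in NCI-H196 without GFP sg1 or ADAR sg2. In A549 with IFN-β, control cells had 37.1 and 40.7 CPM and KO cells 36.6 and 36.2 CPM, so the KO libraries were slightly below both control libraries (-0.10 ± 0.14). Whether A549 differed from the dependent lines was not tested. HCC366 had 96.1 and 81.9 CPM with *GFP* and 122 and 199.8 CPM with *ADAR* sgRNAs, a difference of 0.86 ± 0.36 that was not called.

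**Figure D2:**
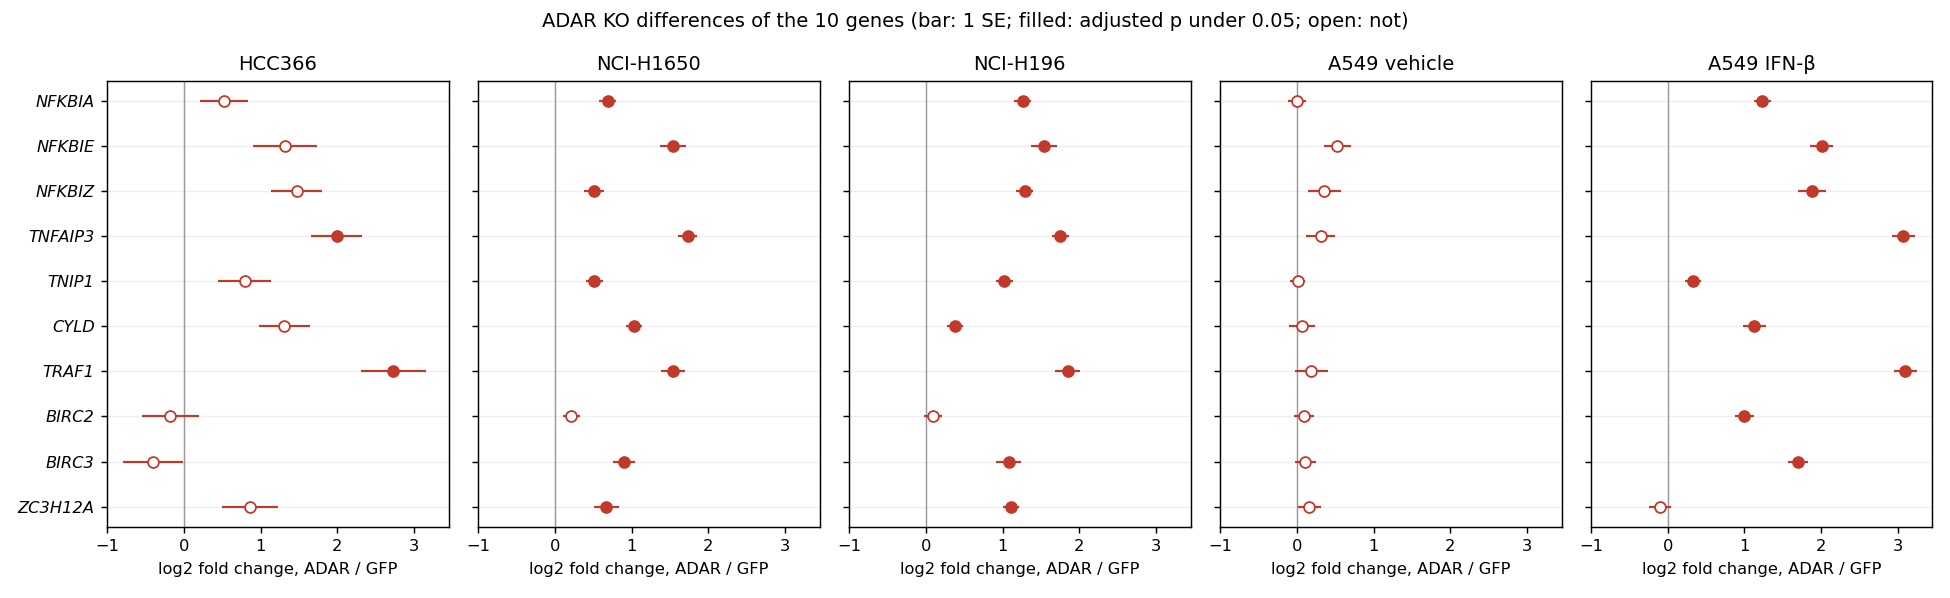
Log2 fold change of each of the 10 genes after *ADAR* KO (*ADAR* over *GFP* sgRNAs, x axis) in the 3 dependent lines and in A549 with vehicle or IFN-β, with bars of 1 SE, filled where adjusted p was under 0.05. *TNFAIP3* and *TRAF1* reach 3.07 and 3.10 in A549 with IFN-β, and all genes lie between 0.00 and 0.53 in A549 with vehicle, where none was called.

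The response of control A549 cells to IFN-β is a term of the interaction that was used to choose the genes, so it is also given as a description, without p values. With *GFP* sgRNAs, 8 of the 10 genes were called higher with IFN-β than with vehicle, where 4.39% of all genes tested were called higher, and none of the 10 was called lower. *TRAF1* went from 11.2 and 8.43 CPM to 30.5 and 30.7 CPM, a log2 difference of 1.68 ± 0.18, and *BIRC3* from 65.7 and 74.7 CPM to 185 and 156 CPM, a difference of 1.27 ± 0.13. These were the largest differences of the 10 genes, and the groups did not overlap. *TNFAIP3* differed by 0.90 ± 0.17, *NFKBIE* by 0.89 ± 0.17 and *NFKBIA* by 0.62 ± 0.12. *BIRC2* and *ZC3H12A* each differed by 0.72 (SE 0.13 and 0.15) and *TNIP1* by 0.50 ± 0.10. *NFKBIZ* (0.59 ± 0.20) and *CYLD* (0.32 ± 0.16) were not called. With each sgRNA as a block, or without a filter on low counts, *NFKBIZ* was called as well, which made 9 genes. When the spread was estimated from all 20 libraries, 5 genes were called (*TNFAIP3*, *NFKBIE*, *TRAF1*, *BIRC3* and *ZC3H12A*). Leaving out 1 library cost the call of *ZC3H12A* (without vehicle sg1), of *NFKBIE* and *TNIP1* (without vehicle sg2) or of *NFKBIE* (without IFN-β sg2), while *TNFAIP3*, *TRAF1* and *BIRC3* were called in every alternative run.

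In *ADAR* KO A549 cells all 10 genes were called higher with IFN-β than with vehicle, where 15.5% of genes were called higher. The differences ran from 0.46 ± 0.15 for *ZC3H12A* and 0.82 ± 0.10 for *TNIP1* to 3.67 ± 0.16 for *TNFAIP3* and 4.59 ± 0.17 for *TRAF1*. *ZC3H12A* was not called, leaving 9, without vehicle sg2, IFN-β sg1 or IFN-β sg2, or in the fit of all 20 libraries. The KO by IFN-β interaction, the KO difference with IFN-β minus that with vehicle, was called higher for 8 of 10 genes, where 4.07% of genes were called higher. *TRAF1* (2.91 ± 0.26) and *TNFAIP3* (2.77 ± 0.24) had the largest interactions, and *TNIP1* (0.32 ± 0.14) and *ZC3H12A* (-0.26 ± 0.21) were not called. *ZC3H12A* had 37.1 and 40.7 CPM in control cells with IFN-β and 36.6 and 36.2 CPM in KO cells with IFN-β. These comparisons share the A549 libraries, so their values are set side by side and no relation between them is given.

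**Figure D3:**
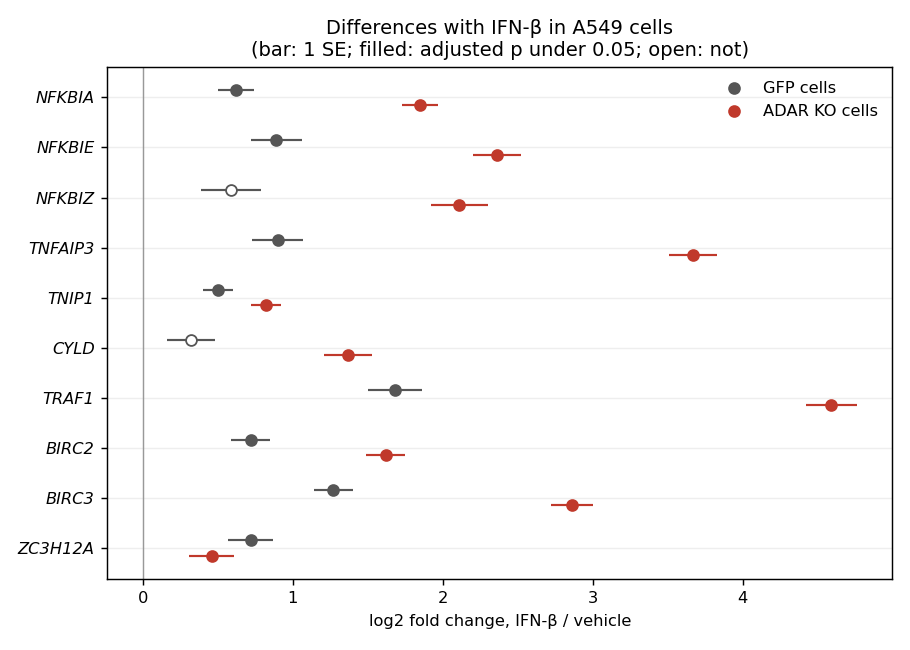
Log2 fold change with IFN-β over vehicle (x axis) of the 10 genes in A549 cells with *GFP* sgRNAs (grey) and with *ADAR* sgRNAs (red), with bars of 1 SE, filled where adjusted p was under 0.05. The red points lie right of the grey ones except for *ZC3H12A* (0.46 against 0.72), and *NFKBIZ* and *CYLD* in control cells are open.

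The levels in control cells without IFN-β were compared between each dependent line and A549 with vehicle, in a fit of 8 libraries. All 10 genes were higher in HCC366 than in A549, where 32.1% of 15964 genes tested were called higher. *TNFAIP3* had 374 and 277 CPM in HCC366 and 13.9 and 16.5 CPM in A549 (4.37 ± 0.16, edgeR adjusted p = 8.45e-76), a 20.7-fold difference. *TRAF1* (2.68 ± 0.19), *BIRC2* (2.55 ± 0.13) and *NFKBIZ* (2.22 ± 0.17) followed, and *TNIP1* differed least (0.62 ± 0.13, edgeR adjusted p = 1.7e-05). *TNFAIP3* was also higher in NCI-H1650 (2.49 ± 0.16, edgeR adjusted p = 7.07e-38, with 104 and 69.6 CPM) and in NCI-H196 (3.23 ± 0.16, edgeR adjusted p = 1.92e-50, with 148 and 94.4 CPM). *NFKBIZ* and *CYLD* were the other genes of the 10 that were higher than in A549 by more than a log2 difference of 1 in every dependent line. The study gives the time from transduction to RNA isolation for the dependent lines but not for A549. Cell line, that time and the vehicle that only A549 received cannot be told apart here.

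In NCI-H1650, 6 of the 10 genes were called higher than in A549, where 33.9% of genes were, and 3 were called lower, where 34.4% were. The lower genes were *TNIP1* (-1.08 ± 0.14, edgeR adjusted p = 2.78e-13), *NFKBIE* (-0.54 ± 0.21, edgeR adjusted p = 0.0173) and *ZC3H12A* (-0.42 ± 0.17, edgeR adjusted p = 0.019). By DESeq2 the last 2 were not called (adjusted p = 0.529 and 0.56), nor were *TRAF1* (0.417) and *BIRC3* (0.0713), which left 5 genes. The same 4 genes were lost in the fit of all 20 libraries, and up to 3 of them when 1 library was left out. In NCI-H196, 7 genes were called higher, where 35.8% of genes were, and 2 lower, where 34.7% were. *NFKBIZ* was 13.1-fold higher, at 195.7 and 177 CPM against 14.02 and 15.4 CPM in A549 (edgeR adjusted p = 7.8e-63), while *BIRC3* was lower at 27.3 and 35.4 CPM against 84.1 and 97.6 CPM (-1.73 ± 0.18, edgeR adjusted p = 7.79e-18). *TNIP1* was lower as well, at -1.35 ± 0.16. Without NCI-H196 GFP sg1, 4 genes were called and the *TRAF1* difference of 0.56 ± 0.22 became -0.09.

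**Figure D4:**
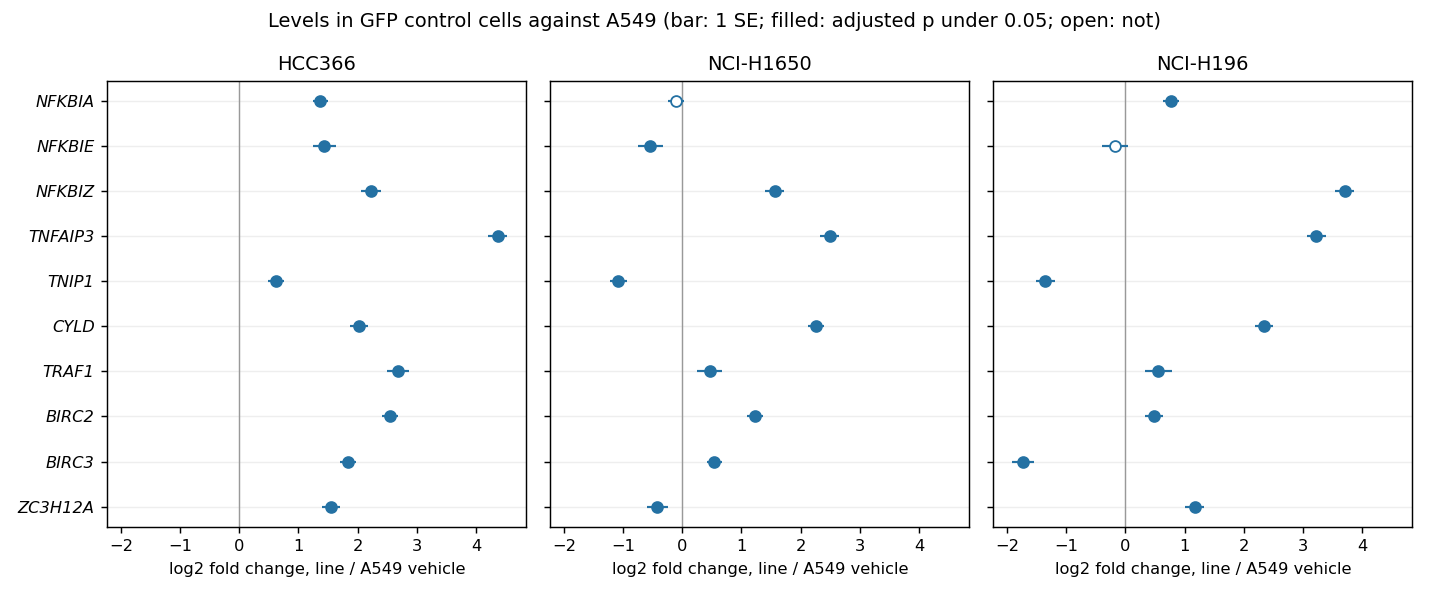
Log2 fold change of the 10 genes in control cells (*GFP* sgRNAs, no IFN-β) of HCC366, NCI-H1650 and NCI-H196 over A549 with vehicle (x axis), with bars of 1 SE, filled where adjusted p was under 0.05. *TNFAIP3* lies furthest right in HCC366 (4.37) and NCI-H1650 (2.49), and *BIRC3* lies left of 0 in NCI-H196 (-1.73).

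Levels of different genes were compared only per kilobase of exon, on the CPM scale within a line. In A549 control cells with vehicle, *TNIP1* had 49.2 CPM per kb, *NFKBIA* 20.6 and *TNFAIP3* 1.82, the last the second lowest of the 10. In HCC366 control cells *TNIP1* had 95.0 CPM per kb, *BIRC2* 78.3, *NFKBIA* 66.5 and *TNFAIP3* 49.0. NCI-H196 control cells had *NFKBIA* first at 52.2 CPM per kb and *NFKBIZ* second at 36.3, while *NFKBIZ* was second lowest in HCC366 at 11.2. *TRAF1* was the lowest of the 10 in NCI-H1650 and NCI-H196, at 4.01 and 3.82 CPM per kb.

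Other genes of the pathway were taken from lists by role, which were also written with earlier results of these data known. The lists hold 72 genes, of which 71 were matched. Of 5 NF-kB subunit genes, 3 were called higher after KO in NCI-H1650 (6.18% of all genes tested), 4 in NCI-H196 (10.3%), 5 in A549 with IFN-β (10.8%) and none in HCC366 (1.2%) or in A549 with vehicle (0.0324%). These shares of all genes are the background for the other lists too. *RELB* and *NFKB2*, of the alternative pathway, were highest among them, by 1.04 ± 0.12 and 1.01 ± 0.11 in NCI-H1650, 1.38 ± 0.11 and 1.22 ± 0.11 in NCI-H196 and 1.36 ± 0.12 and 1.28 ± 0.12 in A549 with IFN-β. The median of the 5 genes was 0.81 in NCI-H1650, 0.97 in NCI-H196, 1.25 in A549 with IFN-β, 1.03 in HCC366 and 0.09 in A549 with vehicle on the log2 scale, and the median of all genes tested lay between -0.01 and 0.01. Among the 4 other IκB family genes, 3 were called higher in each of NCI-H1650, NCI-H196 and A549 with IFN-β. None of them was called in HCC366 or in A549 with vehicle. *BCL3* differed by 1.07 ± 0.14 in NCI-H1650 and 1.16 ± 0.18 in NCI-H196.

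Inflammatory targets of NF-kB had the highest median of the lists in NCI-H1650, NCI-H196 and A549 with IFN-β. Of those tested, 10 of 13 were called higher in NCI-H1650 (6.18% of all genes), 15 of 16 in NCI-H196 (10.3%), 16 of 16 in A549 with IFN-β (10.8%), 3 of 13 in HCC366 (1.2%) and 0 of 16 in A549 with vehicle. Their median in HCC366 was 1.30. Some of the genes called were near the detection limit in the control libraries, so their differences are no support for the list. With *GFP* sgRNAs, *CCL20* had 0 to 1.67 CPM in NCI-H196 and *CXCL3* 0.441 to 0.955 CPM in NCI-H1650. *CSF2* had 0.0938 to 0.186 CPM in control A549 cells with IFN-β. Others were not near it, such as *CXCL8* in HCC366 control cells with 35.0 to 36.4 CPM. They are no support either, since the list was written with earlier results of these data known. The chemokine gene *CXCL8* differed by 4.69 ± 0.24 in A549 with IFN-β and 2.88 ± 0.40 in HCC366. *CXCL1* differed by 3.53 ± 0.40 in NCI-H196, where its control libraries had 0 and 1.12 CPM and the *ADAR* libraries 12.5 to 16.2 CPM. The 0 CPM of *CXCL1* and of *CCL20* in NCI-H196 came from GFP sg2. A single read was worth 14.7 CPM in that library, so these values say little about the level. In control A549 cells 4 of the 16 were called higher with IFN-β (4.39% of all genes), led by *CCL5* (3.93 ± 0.66), also a known interferon target, whose levels were low at 0.132 to 0.133 CPM with vehicle and 1.86 to 2.53 CPM with IFN-β.

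Of the genes of the signal chain between receptor and kinase complex, 1 of 19 tested was called higher in NCI-H1650, near the 6.18% of all genes, 6 of 19 in A549 with IFN-β (10.8%), 5 of 19 in NCI-H196 (10.3%, with *TRAF5* lower at -0.43 ± 0.15) and 0 of 18 in HCC366 (1.2%). *MAP3K14*, the kinase of the alternative pathway, was among them in NCI-H1650 (0.90 ± 0.11), NCI-H196 (0.58 ± 0.18) and A549 with IFN-β (0.69 ± 0.11). Partners of A20 and other brakes outside the 10 genes gave 4 of 10 in NCI-H1650, 5 of 12 in NCI-H196, 4 of 11 in A549 with IFN-β and 0 of 12 in HCC366, beside the same shares of all genes. *TNIP2* was called in NCI-H1650 (0.43 ± 0.14) and NCI-H196 (0.73 ± 0.16), and *ZC3H12C*, a relative of *ZC3H12A*, in NCI-H1650 (0.48 ± 0.13) and A549 with IFN-β (0.98 ± 0.14). Receptors and ligands gave 1 of 8 in NCI-H1650, 5 of 10 in NCI-H196, 2 of 9 in A549 with IFN-β and 2 of 8 in HCC366, again beside these shares. In NCI-H196, A549 with IFN-β and HCC366, the ligand genes with the largest differences were near the detection limit in the control libraries. These genes passed the filter on low counts through the *ADAR* libraries, and their differences are no support for the list. *TNF* had 0 and 0.446 CPM with *GFP* and 2.26 to 4.06 CPM with *ADAR* sgRNAs in NCI-H196. The 0 came from GFP sg2, where a single read was worth 14.7 CPM, and says little about the level. With *GFP* and *ADAR* sgRNAs, *IL1A* had 0.31 to 0.563 and 4.27 to 5.36 CPM in A549 with IFN-β. *LTB* had 0.775 to 1.72 and 17.5 to 34.9 CPM in HCC366. Not near the limit was the receptor gene *TNFRSF12A*, the gene called in NCI-H1650 (0.49 ± 0.10), with 205 to 214 CPM in control cells. The same holds for *IL1B* in NCI-H196 (0.89 ± 0.11), with 132 to 163 CPM in control cells. *TNFRSF12A* and *IL1B* are no support for the list either, since it was written with earlier results of these data known. None of the listed genes was called in A549 with vehicle.

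**Figure D5:**
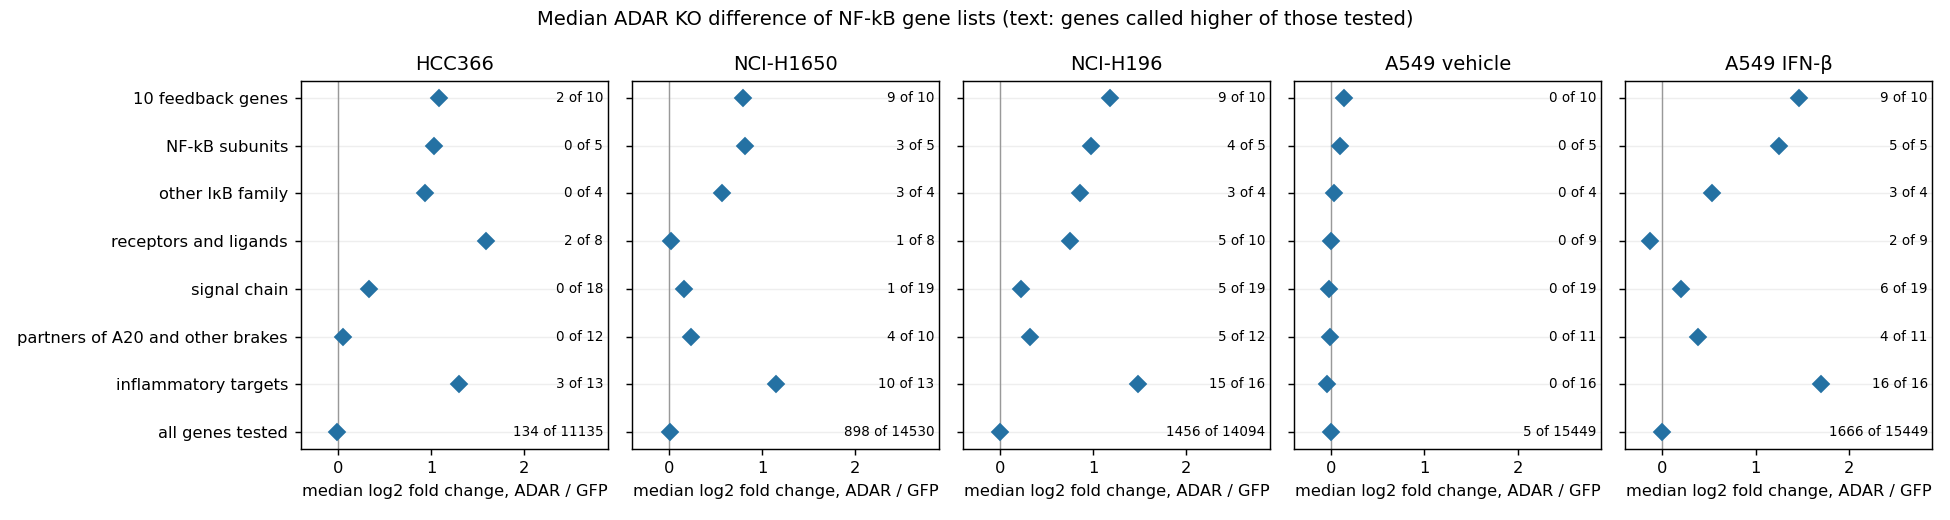
Median log2 fold change after *ADAR* KO (x axis) of the 10 feedback genes, of 6 lists of other NF-kB pathway genes and of all genes tested, in the 3 dependent lines and in A549 with vehicle or IFN-β, with the number of genes called higher of those tested at the right. Inflammatory targets have medians of 1.15, 1.48 and 1.70 in NCI-H1650, NCI-H196 and A549 with IFN-β, while the signal chain has 0.16, 0.22 and 0.20.

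The genes whose KO differences in the 5 settings lay nearest to those of *TNFAIP3*, by root mean square difference over 10239 genes tested in every fit, were *TRAF1* (0.348 log2 units), *PER1* (0.373), *NOCT* (0.406), *NR4A3* (0.431) and *KDM6B* (0.5). *PER1* encodes a circadian clock protein, *NOCT* a circadian enzyme of the deadenylase family, *NR4A3* an orphan nuclear receptor and *KDM6B* a histone demethylase. *PER1* had differences of 2.71 in A549 with IFN-β, 2.42 in HCC366, 1.67 in NCI-H196, 1.15 in NCI-H1650 and 0.09 in A549 with vehicle. Among the other feedback genes, *NFKBIE* ranked 8 (0.588) and *NFKBIZ* 28 (0.824), while *BIRC2* ranked 1216 (1.68) and *ZC3H12A* 829 (1.61).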

How the data were processed

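RNA-seq was done on 20 libraries, after ribosomal RNA depletion and directional library preparation. Per the labels, the authors aligned reads to hg19 with STAR and deposited raw counts per gene made with HTSeq. Tool versions, the annotation release and the strand setting of the counting are not given in the sources used here. Samples were grouped by the labels' cell line, sgRNA target and treatment, with the sgRNA number as replicate. The 10 genes and all gene lists were chosen with earlier results of these data known.

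Symbols were matched for 55727 of 58233 identifiers (97.4% of counts). Gene positions came from GENCODE v44 mapped to GRCh37. The deposited counts entered edgeR 4.0.16 under R 4.3.3 (TMM scaling, filterByExpr by group, quasi-likelihood F-test, prior count 0.125, Benjamini-Hochberg over all genes tested, threshold 0.05). Fits were made separately for each dependent line, for the 8 A549 libraries together, and for the 8 control libraries without IFN-β. The estimated prior degrees of freedom were 7.03 in HCC366, 52.1 in NCI-H1650, 25.5 in A549, 239 in the control fit and infinite in NCI-H196. In NCI-H196 genes of the same level thus shared the same spread, and SE and p values rest little on each gene's own spread. The control fit had 4 residual degrees of freedom beside the 239, so its SE and p values also rest little on each gene's own spread. SE was taken as the log2 fold change over the root of F. CPM values used the effective library sizes of each fit. A single read was worth 14.7 CPM in the shallowest library, NCI-H196 GFP sg2. An exact permutation test of 2 against 2 libraries cannot give a two-sided p below 0.333 and was not used.

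Named genes were the 10 feedback genes, *ADAR*, the 5 genes nearest to *TNFAIP3*, and up to 3 called genes per list and comparison with the largest log2 difference. The sgRNA numbers do not pair *GFP* with *ADAR* libraries, since the guides differ. In A549 the labels give vehicle and IFN-β libraries of the same sgRNA, but the main fits used no block for it. A block for each sgRNA was run only as an alternative. Deviations of the vehicle and IFN-β libraries of the same sgRNA correlated at -0.0592 in control and -0.00477 in KO cells. Alternatives were DESeq2 size factors, DESeq2 1.42.0, no filter on low counts, replicate blocks, a fit of all 20 libraries and leaving out each library. The check of 1 marker list is not reported here.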

Additional observations from a re-analysis of the deposited data

Results flagged for a closer look

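In A549 cells the *ADAR* KO difference with IFN-β was larger than that with vehicle for 8 of the 10 genes, by the interaction term of edgeR's fit over all genes, where 4.07% of genes were called in this direction. The difference between the settings was 2.91 for *TRAF1*, 2.77 for *TNFAIP3*, 1.59 for *BIRC3*, 1.52 for *NFKBIZ*, 1.47 for *NFKBIE*, 1.23 for *NFKBIA*, 1.06 for *CYLD* and 0.91 for *BIRC2*, on the log2 scale. The genes were chosen partly from this interaction, so the values are a description and no explanation was weighed. The 2 KO libraries with IFN-β lay above the other 6 A549 libraries for each of these 8 genes, which the interaction itself had picked. The share of all genes with this pattern was not computed, so nothing is read from it. Among libraries with IFN-β alone, both *ADAR* libraries were above both *GFP* libraries for 28.2% of all genes tested.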

How the results depend on the processing

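The number of the 10 genes called after KO in HCC366 was 2, and it was 4 without a filter on low counts, 4 by DESeq2, 7 in the fit of all 20 libraries, and between 0 and 10 when 1 library was left out. In NCI-H1650 it was 9, with 6 by DESeq2, 5 in the fit of all 20 libraries and 7 to 9 with 1 library left out. In NCI-H196 it was 9, with 3 by DESeq2, which gave no adjusted p for 3 of the genes, and 2 to 9 with 1 library left out. In A549 it was 0 with vehicle under every alternative run. With IFN-β it was 9, with 8 to 9 when 1 library was left out, and for the interaction 8, with 6 to 9. For IFN-β in control A549 cells it was 8, with 5 in the fit of all 20 libraries and 6 to 8 with 1 library left out, and in KO cells 10, with 9 to 10. For control levels against A549 it was 10 in HCC366, with 10 in every such run. It was 9 in NCI-H1650, with 5 by DESeq2, 5 in the fit of all 20 libraries and 6 to 8 with 1 library left out, and 9 in NCI-H196, with 4 to 9. Without NCI-H196 GFP sg1, the *TRAF1* difference from A549 reversed to -0.09, and with 1 library left out it ranged from -0.09 to 0.69. The cause of these changes was not tested. No share of all genes called is given for these alternatives or for those of the next paragraph. Nothing about the 10 genes in particular is read from the counts.

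A replicate block by sgRNA number gave 9 genes called after KO in NCI-H1650, 7 in NCI-H196, 2 in HCC366, 0 in A549 with vehicle and 9 with IFN-β, and for control levels 10 in HCC366 and 8 in each of the other lines. A block for each sgRNA in A549 gave 9 for IFN-β in control cells, 10 in KO cells and 8 for the interaction. Same-numbered *GFP* and *ADAR* libraries share only a number, and their deviations correlated at -0.253 in HCC366, -0.0209 in NCI-H196 and -0.0163 in NCI-H1650. With the numbers crossed in HCC366, an alternative added after seeing the data, 5 genes were called. The depth of 62679 reads in NCI-H196 GFP sg2 limits every comparison of that line, since *NFKBIE* and *TRAF1* held 1 read there.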
